A study of Mus musculus with 10 samples.

Results

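Genes of the brain's blood vessels were examined in the ventral hippocampus (vHpc) of ovariectomized (OVX) mice. The set was a fixed list of 41 gene symbols, and every one of them was found among the 24421 symbols of the expression table. All 41 also had a mean of at least 0.5 CPM (reads per 1000000 reads counted on genes in a library), as did 15081 symbols in all. Of the 41 genes, 31 are typical of endothelial cells. They comprised 18 genes for junctions, surface proteins and receptors, 7 for transporters of the barrier and 6 for transcription factors. The other 10 are typical of mural cells, with 4 pericyte genes, 4 smooth muscle genes and 2 genes shared by both kinds of cell.

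The mice were females, either wild-type C57/BL6 (WT) or knock-in mice heterozygous for the BDNF Val66Met allele (Het-Met), which carry it in every cell. All were ovariectomized at around 70 to 80 days of age and allowed 2 weeks to recover. They then drank 17β-estradiol (E2) at 300 nM, about 0.7 µg per day, or vehicle for 6 weeks, and both solutions held 0.1% ethanol. The 10 libraries analysed here each held RNA of a pool of 2 animals. WT mice gave 2 libraries with vehicle (numbered 1 and 3) and 2 with E2 (numbered 1 and 2), whereas Het-Met mice gave 3 with each treatment. A further replicate of each WT group, which the methods of the study count, was not analysed here. No group of intact mice is part of the comparison, so that the loss of the ovaries is common to all 4 groups.

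Endothelial cells of the brain are sealed to each other by tight junctions and form the blood-brain barrier. They carry nutrients across by dedicated transporters, pump foreign molecules back with ABC-type pumps, and keep these properties through Wnt signals from the surrounding tissue. Pericytes sit on the capillaries within the same basement membrane, while smooth muscle cells wrap the arterioles and contract to set blood flow. Endothelial cells respond to estrogens, among other things through the enzyme that makes nitric oxide.

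RNA of all the listed genes was found in every library. Values per kilobase of exonic length, which allow genes to be compared with each other, are given here as CPM per kb over the 10 libraries. Bsg, which encodes basigin, a partner of nutrient transporters that neurons and glia also make, stood highest at 251 CPM per kb. Vtn, which encodes vitronectin and is made by brain pericytes, followed at 50.6. Itm2a, a membrane protein gene enriched in brain endothelium, reached 28.8, Slc2a1, the glucose transporter of the barrier, 24.6 and Cldn5, the main claudin of its tight junctions, 21.3. The contractile genes Acta2 and Myh11 lay at 10.4 and 2.23 CPM per kb. The lowest was Cnn1, a calponin gene of smooth muscle, at 0.259, and it rested on only 9 to 24 reads per library. For each of the other 40 genes at least 90 reads were counted in every library.

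The markers themselves varied little. Cldn5 ranged from 25.8 to 35.6 CPM over the 10 libraries. Pecam1, a surface marker of all endothelium, ranged from 19.9 to 26.8 CPM, and Slc2a1 from 64.6 to 96.6 CPM. For Pdgfrb, the receptor by which pericytes are recruited to vessels, the range was 33.2 to 47.8 CPM. The highest library exceeded the lowest by 1.21-fold for Kdr, the main VEGF receptor, and by 2.48-fold for Cnn1, the narrowest and the widest range of the 41 genes.

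Library depth was even, from 19820184 to 23267410 reads on genes. RNA of the choroid plexus, the tissue that makes cerebrospinal fluid, varied between libraries far more than RNA of vessels. Its 12 markers summed to 156 and 1096 CPM in vehicle-treated WT, 1928 and 2548 CPM in E2-treated WT, 1478 to 3288 CPM in vehicle-treated Het-Met and 271 to 1571 CPM in E2-treated Het-Met mice, and none of the 12 was at 0 in any library. Markers of meningeal and perivascular fibroblasts summed to 357 to 525 CPM. Of the red blood cell genes, the globin genes Hba-a1, Hba-a2, Hbb-bs and Hbb-bt were listed at 0 in every library, and Alas2 lay between 2.09 and 3.84 CPM. The annotation used for counting is not given, and whether reads could be assigned to these globin symbols was not tested. Their zeros are therefore not a measure of blood in the tissue. In such tissue RNA, fewer cells of a type and less RNA per cell cannot be told apart.

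**Figure D1:**
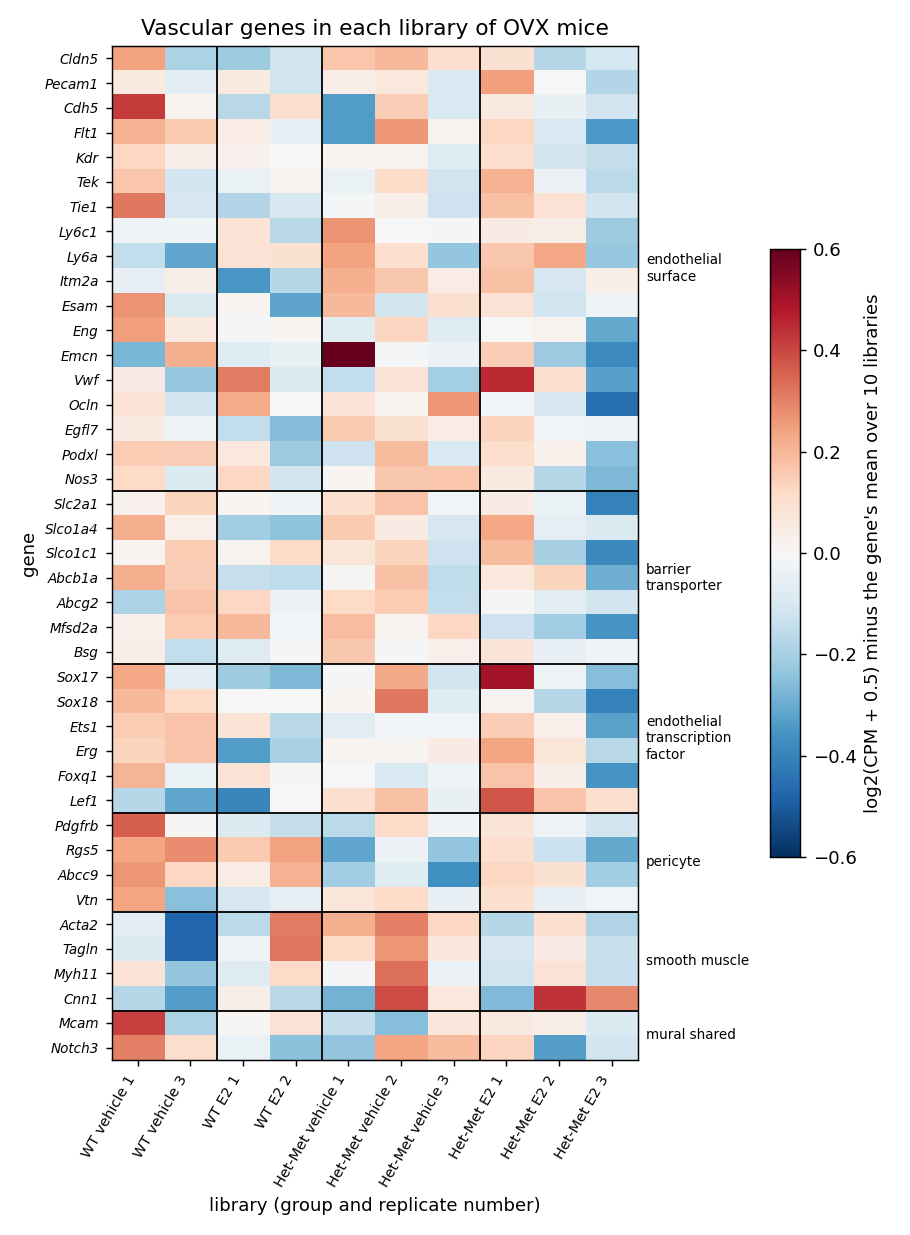
Relative level of the 41 vascular genes (rows, grouped by class) in the 10 libraries (columns), as log2(CPM + 0.5) minus the gene's mean over the libraries, with red for higher and blue for lower values. Rgs5 and Abcc9 are redder in the 4 WT libraries than in the vehicle-treated Het-Met libraries, and E2-treated Het-Met replicate 3 is blue for most endothelial genes.

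No gene of the set was called in any of the 7 comparisons by limma, a test across all 15081 genes with adjustment for their number. To be called, a gene had to differ by more than 1.3-fold with an adjusted p-value under 0.05. Calls were rare in the whole transcriptome, at 0.0133% of genes for E2 in WT, 0.0% for E2 in Het-Met, 0.00663% between genotypes under vehicle, 0.0265% for genotype under E2 and 0.0729% for the interaction. They reached 0.00663% for E2 averaged over genotypes and 0.0265% for genotype averaged over treatments. edgeR on whole reads recovered from the CPM likewise called none of the 41, and DESeq2 called a single one, Rgs5, in 2 comparisons, in which it also called more of the other genes than limma did. The 95% interval of the 41 genes reached, at the median, 0.29 to either side on the log2 scale for a genotype difference under vehicle and 0.31 for E2 in WT mice, which correspond to 1.22-fold and 1.24-fold. The differences below are therefore described as measured values. Where groups are said not to overlap, the share of all genes that separated likewise was not counted. With 2 or 3 libraries per group, such separation is a description only.

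**Figure D2:**
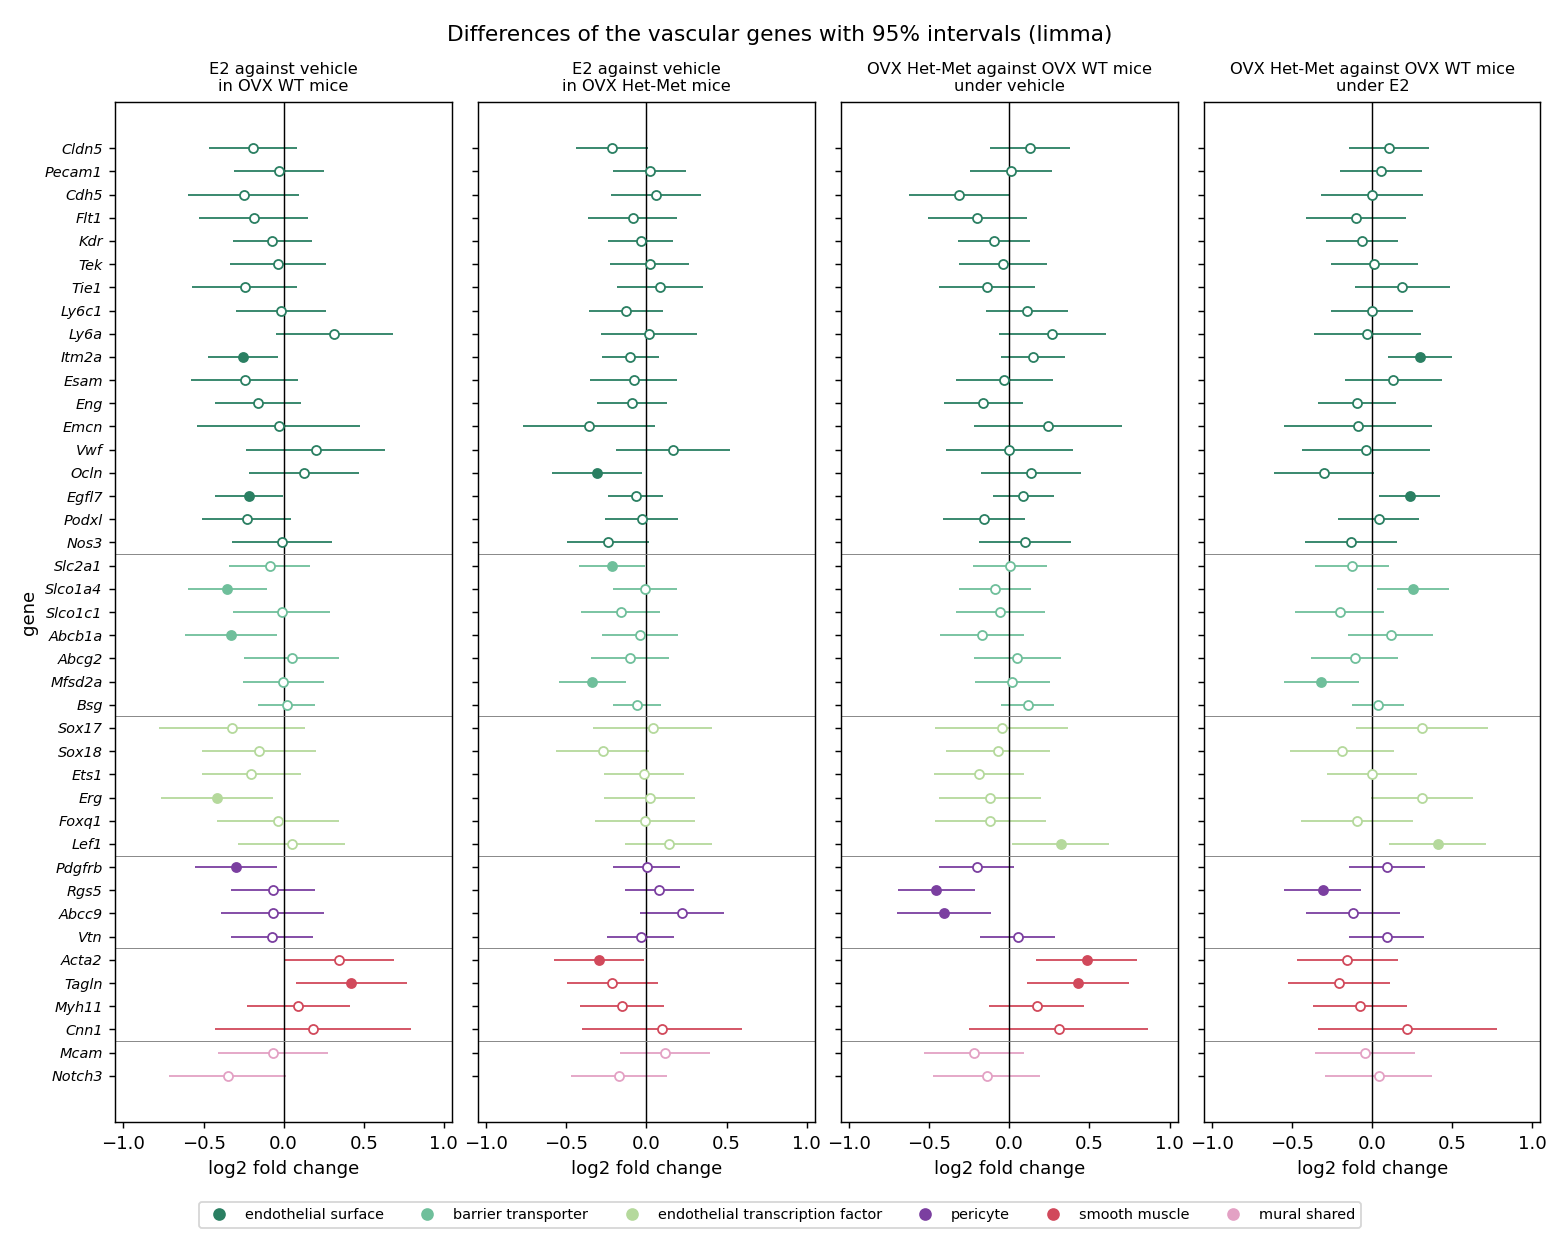
Log2 fold change (x axis) of each of the 41 genes (rows) with its 95% interval, in the 4 comparisons of pairs of groups. Filled points have an unadjusted p-value under 0.05, which held for 7, 4, 5 and 6 genes from left to right. Rgs5 lies at -0.46 under vehicle and -0.31 under E2, and the 4 smooth muscle genes lie right of 0 for E2 in WT and for genotype under vehicle.

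Between the genotypes, the pericyte gene Rgs5 stood out. Rgs5 (chr1:169655501-169695813, plus strand, GRCm38) encodes a regulator of G protein signalling that marks brain pericytes. It measured 45.9 and 47.3 CPM in vehicle-treated WT and 43.3 and 45.9 CPM in E2-treated WT mice. In vehicle-treated Het-Met mice it measured 31.2, 37.8 and 32.9 CPM, and in E2-treated Het-Met mice 41.6, 35.4 and 31.2 CPM. Each of the 6 Het-Met libraries was thus below each of the 4 WT libraries. The log2 fold change under vehicle was -0.46 ± 0.11 (SE, 2 against 3 libraries), with an adjusted p of 0.262 in limma. Under E2 it was -0.31 ± 0.11 (adjusted p = 0.355, limma), and averaged over the treatments -0.38 ± 0.08 (adjusted p = 0.108, limma). DESeq2 called Rgs5 under vehicle (log2 fold change -0.48, adjusted p = 0.0491) and averaged over treatments (-0.40, adjusted p = 0.00261), while edgeR did not (adjusted p = 0.273 and 0.0937). By DESeq2 34 of the 15081 genes (0.225%) were called under vehicle and 88 (0.584%) averaged over treatments, against 1 and 4 by limma. In limma without vehicle-treated Het-Met replicate 2, the averaged difference was -0.42 and its adjusted p 0.0304, and 86 genes of the transcriptome (0.57%) were called in place of 4. No other fit with a library left out called Rgs5. With each library left out in turn, its log2 fold change ran from -0.44 to -0.33 averaged over treatments and from -0.53 to -0.40 under vehicle.

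Abcc9, which encodes the regulatory subunit of a potassium channel that pericytes carry, was likewise lower in Het-Met mice under vehicle. Its values were 12.8 and 11.6 CPM in vehicle-treated WT and 9.06, 9.99 and 8.07 CPM in vehicle-treated Het-Met mice, with no overlap. This was a log2 fold change of -0.41 ± 0.14 (adjusted p = 0.357, limma). Under E2 the genotypes overlapped, with 10.9 and 12.3 CPM in WT and 9.06 to 11.6 CPM in Het-Met mice.

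In the remaining pericyte genes, Vtn and Pdgfrb, the genotypes overlapped under vehicle. Vtn measured 120.8 and 85.9 CPM in vehicle-treated WT, 95.3 and 98.3 CPM in E2-treated WT, 107.5, 111 and 98.97 CPM in vehicle-treated Het-Met and 109.4, 98.9 and 101.2 CPM in E2-treated Het-Met mice, so that WT and Het-Met libraries were interleaved. Pdgfrb was at 47.8 and 37.4 CPM in vehicle-treated WT and 35.0 and 33.7 CPM in E2-treated WT mice. In Het-Met mice Pdgfrb was at 33.2, 40.4 and 36.6 CPM with vehicle and 39.3, 36.4 and 34.4 CPM with E2. Under vehicle its mean was lower in Het-Met mice, at 36.7 against 42.6 CPM in WT mice, but the libraries overlapped. Its lowest WT values were thus those with E2, and the log2 difference of E2 against vehicle in WT was -0.30 ± 0.12 (adjusted p = 1.00, limma).

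The contractile genes of smooth muscle varied together, and under vehicle their genotype difference was opposite to that of Rgs5. Acta2 (chr19:34241090-34255590, minus strand), which encodes smooth muscle actin, was at 21.5 and 16.1 CPM in vehicle-treated WT and 20.1 and 28.1 CPM in E2-treated WT mice. In Het-Met mice it was at 26.2, 27.9 and 24.7 CPM with vehicle and 20.0, 24.3 and 19.9 CPM with E2. The 3 vehicle-treated Het-Met libraries were above both vehicle-treated WT libraries and above all 3 E2-treated Het-Met libraries, while the 2 E2-treated WT libraries lay apart from each other. Het-Met against WT under vehicle gave a log2 fold change of 0.48 ± 0.15 (adjusted p = 0.336, limma). E2 against vehicle in Het-Met mice gave -0.30 ± 0.13 (adjusted p = 0.872, limma), and the interaction of genotype and E2 gave -0.64 ± 0.21 (adjusted p = 0.553, limma).

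Tagln, which encodes transgelin, an actin-binding protein of smooth muscle, followed Acta2 closely. It was at 8.93 and 6.69 CPM in vehicle-treated WT, 9.29 and 11.95 CPM in E2-treated WT, 10.3, 11.5 and 9.97 CPM in vehicle-treated Het-Met and 8.81, 9.82 and 8.58 CPM in E2-treated Het-Met mice. Both vehicle-treated WT libraries were therefore below both E2-treated WT libraries and all vehicle-treated Het-Met libraries. For Tagln the log2 fold change was 0.42 ± 0.16 for E2 in WT (adjusted p = 1.00, limma) and 0.43 ± 0.15 for genotype under vehicle (adjusted p = 0.372, limma), and the interaction was -0.64 ± 0.21 (adjusted p = 0.557, limma). The difference of E2 in WT was 0.23 without vehicle-treated WT replicate 3 and 0.25 without E2-treated WT replicate 2. Exons of Tagln overlap those of Pcsk7 on the opposite strand by 108 bases, and whether reads were counted by strand is not given in the sources used here.

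Myh11, the smooth muscle myosin heavy chain gene, was at 17.9 and 14.3 CPM in vehicle-treated WT, 15.9 and 18.3 CPM in E2-treated WT, 16.8, 21.3 and 16.4 CPM in vehicle-treated Het-Met and 15.5, 17.9 and 15.3 CPM in E2-treated Het-Met mice, with all groups overlapping. Cnn1 lay between 0.446 and 1.11 CPM. Vehicle-treated WT replicate 3 held the lowest value of Acta2, Tagln, Myh11 and Cnn1. Without this library the log2 fold change of Acta2 between genotypes under vehicle was 0.28 in place of 0.48, and without replicate 1 it was 0.69. The interaction of Acta2 was -0.40 without E2-treated WT replicate 2. The choroid plexus markers differed between the same groups, with 12 of 12 higher in Het-Met under vehicle at an unadjusted p-value under 0.05 and 12 of 12 lower in the interaction. With their level as a covariate the log2 value of Acta2 was 0.73 under vehicle, -1.14 for the interaction and -0.48 for E2 in Het-Met mice. That of Tagln was -1.07 for the interaction and 0.69 for E2 in WT. The mean log2 level of the choroid plexus markers was -0.95 in vehicle-treated and 0.96 in E2-treated WT mice. In Het-Met mice it was 0.56 with vehicle and -0.56 with E2. As this level differed between the groups compared, fits with this covariate, here and below, cannot separate it from genotype or E2.

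**Figure D3:**
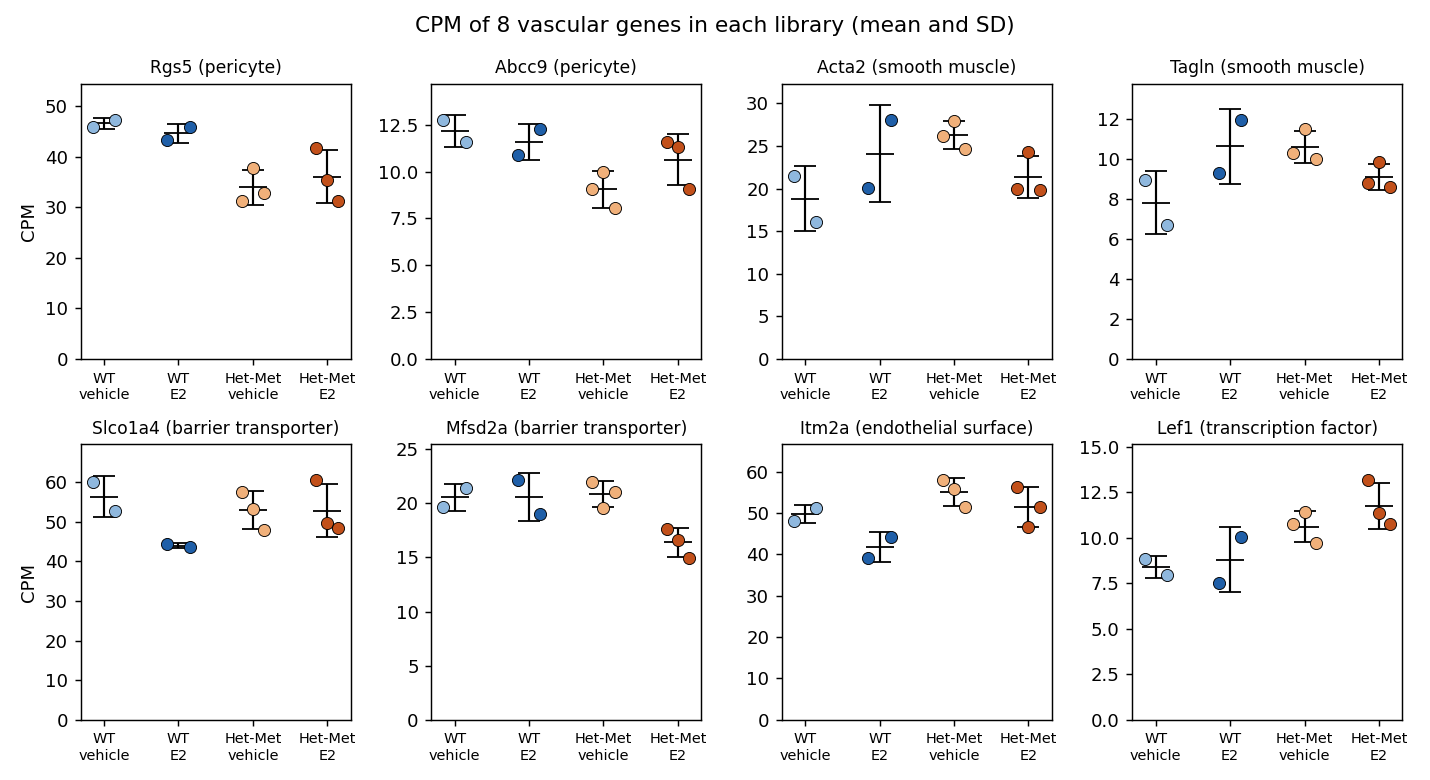
CPM (y axis, from 0) of 8 vascular genes in each library by group, with the group mean and SD as bars (n = 2 for WT groups, n = 3 for Het-Met groups). Rgs5 was between 43.3 and 47.3 CPM in the WT libraries and between 31.2 and 41.6 CPM in the Het-Met libraries, Slco1a4 was lowest in E2-treated WT and Mfsd2a lowest in E2-treated Het-Met mice.

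By class, the pericyte and smooth muscle genes of the set differed in direction under vehicle. Between Het-Met and WT mice given vehicle, 3 of 4 pericyte genes had log2 fold changes below 0, with a median of -0.31, and 4 of 4 smooth muscle genes were above 0, with a median of 0.37. The median over all genes tested was 0.02. The longer marker lists also hold the 4 genes of each class, so they are not a separate check. Their median was -0.08 for 10 pericyte markers, of which 4 were above and 6 below 0. It was 0.31 for 7 smooth muscle markers, of which 6 were above and 1 below 0. Of the 10 pericyte markers, 2 (Rgs5 and Abcc9) had an unadjusted p-value under 0.05. Of the 10 mural genes, 4 (Rgs5, Acta2, Abcc9 and Tagln) had an unadjusted p-value under 0.05, as against 1 of 31 endothelial genes. Over the 41 genes this was 5 (12.2%), 3 higher and 2 lower, while 10.7% of all genes passed, 5.85% higher and 4.83% lower.

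The contrast of the 2 mural classes can be followed library by library, as the mean log2 level of the smooth muscle genes minus that of the pericyte genes, each relative to its mean over the 10 libraries. It was -0.33 and -0.42 in vehicle-treated WT, -0.06 and 0.08 in E2-treated WT, 0.16, 0.29 and 0.22 in vehicle-treated Het-Met and -0.26, 0.20 and 0.12 in E2-treated Het-Met mice. In these classes of 4 genes each, both vehicle-treated WT libraries were below the other 8, and E2-treated Het-Met replicate 1 lay closest to them. The longer lists of 7 smooth muscle and 10 pericyte markers did not keep this separation. There, smooth muscle and pericyte levels were -0.21 and -0.10 in vehicle-treated WT replicate 3. They were -0.03 and 0.16 in E2-treated Het-Met replicate 1, which thus fell below that WT library. The endothelial mean minus the mural mean, in contrast, ranged from -0.15 to 0.16 and overlapped between all 4 groups. Under E2 the median log2 fold change between genotypes was -0.02 for pericyte and -0.12 for smooth muscle genes.

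**Figure D4:**
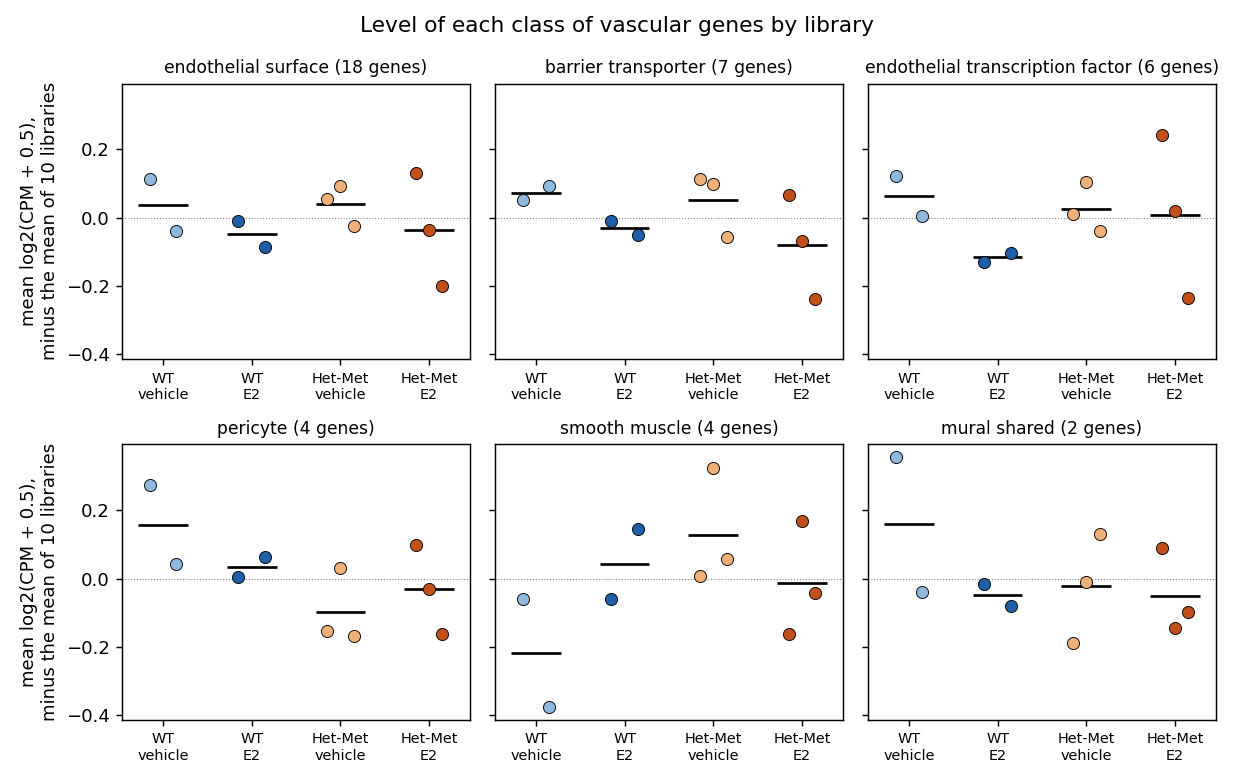
Mean log2(CPM + 0.5) of the genes of each class relative to the mean over the 10 libraries (y axis), with 1 point per library and a bar for the group mean. Smooth muscle genes are lowest in vehicle-treated WT replicate 3 at -0.38, and the 3 endothelial classes have their lowest library in E2-treated Het-Met replicate 3.

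Of the genes shared by pericytes and smooth muscle, Notch3, the receptor that maintains mural cells, had a log2 difference of -0.26 ± 0.11 for E2 averaged over genotypes (adjusted p = 1.00, limma). It ranged from 12.6 to 19.8 CPM. Mcam, a surface protein of mural and some endothelial cells, ranged from 16.3 to 26.1 CPM and had no unadjusted p-value under 0.05 in any comparison.

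E2 was next compared with vehicle in endothelial genes. Averaged over the genotypes, 28 of 31 endothelial genes had a log2 fold change below 0, with a median of -0.12, whereas 50.9% of all genes were above 0 and their median was 0.0017. All 7 transporters were among them. Of the 31 genes, 19 were below 0 in both genotypes, 3 were above 0 in both and 9 had opposite signs. Over the 41 genes, 6 (14.6%) had an unadjusted p-value under 0.05 and all 6 were lower, compared with 3.22% of all genes, 1.73% higher and 1.49% lower. These were Itm2a, Cldn5, Slco1a4, Notch3, Egfl7 and Mfsd2a. The genes of this set vary together from library to library, as shown further on, so their number is not a number of independent observations.

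The size of this difference depended on single libraries. E2-treated Het-Met replicate 3 held the lowest value of 18 of the 31 endothelial genes. Without it the median for E2 in Het-Met mice was 0.01 in place of -0.06, and the average over genotypes was -0.07. In WT mice the median was -0.09, and with each library left out in turn it lay between -0.17 and -0.06. The choroid plexus markers had opposite differences in the genotypes, with a median log2 fold change of 1.98 with E2 in WT and -1.19 in Het-Met mice (12 of 12 above and 12 of 12 below 0). With their level as a covariate, the endothelial median was -0.20 in WT, 0.0026 in Het-Met mice and -0.16 averaged over genotypes.

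Among the transporters, Slco1a4, an organic anion carrier of the barrier (chr6:141805440-141856199, minus strand), differed most in WT mice. It was at 60.05 and 52.6 CPM with vehicle and 44.4 and 43.5 CPM with E2. In Het-Met mice it was at 57.5, 53.3 and 48.0 CPM with vehicle and 60.5, 49.6 and 48.4 CPM with E2. The E2-treated WT libraries were below all other 8 libraries, and the Het-Met groups overlapped. The log2 fold change of E2 was -0.35 ± 0.11 in WT (adjusted p = 0.842, limma) and the interaction 0.34 ± 0.15 (adjusted p = 0.845, limma), which was 0.52 with the choroid plexus markers as a covariate. Abcb1a, which encodes the drug pump P-glycoprotein, had a log2 fold change of -0.33 ± 0.14 for E2 in WT (adjusted p = 1.00, limma), with 33.5 and 31.9 CPM in vehicle-treated and 26.1 and 25.8 CPM in E2-treated mice.

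In Het-Met mice the smallest p-value of the set for E2 was that of Mfsd2a, which encodes the lipid carrier that restrains vesicle transport across the barrier. It was at 21.9, 19.5 and 21.0 CPM with vehicle and 17.6, 16.6 and 14.9 CPM with E2, without overlap, and at 19.7 and 21.4 CPM with vehicle and 22.1 and 19.0 CPM with E2 in WT mice. The log2 fold change of E2 in Het-Met mice was -0.34 ± 0.10 (adjusted p = 0.710, limma), that between genotypes under E2 -0.32 ± 0.11 (adjusted p = 0.343, limma), and the interaction -0.34 ± 0.15 (adjusted p = 0.892, limma). With the choroid plexus markers as a covariate, the difference of E2 in Het-Met mice was -0.21 and that between genotypes under E2 was -0.14. The latter was -0.21 without E2-treated WT replicate 1.

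Slc2a1 was also lower with E2 in Het-Met mice, at 91.5, 96.6 and 84.6 CPM with vehicle and 88.6, 83.3 and 64.6 CPM with E2, with overlap between the groups. In WT mice it was at 87.2 and 94.2 CPM with vehicle and 86.5 and 84.0 CPM with E2, so that the lowest of all 10 values was that of E2-treated Het-Met replicate 3. In Het-Met mice its log2 difference was -0.22 ± 0.10 (adjusted p = 0.878, limma). Bsg ranged from 410.1 to 507.2 CPM, Abcg2, another drug pump gene, from 14.6 to 18.8 CPM, and Slco1c1, the thyroxine carrier gene, from 48.3 to 72.4 CPM. These 3 had no unadjusted p-value under 0.05 in any comparison.

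At the junctions, Cldn5 was at 35.6 and 26.3 CPM in vehicle-treated WT, 25.8 and 27.6 CPM in E2-treated WT, 33.8, 34.4 and 32.2 CPM in vehicle-treated Het-Met and 32.0, 26.6 and 27.9 CPM in E2-treated Het-Met mice. The Het-Met groups did not overlap, whereas vehicle-treated WT replicate 3 lay among the E2-treated libraries. For E2 averaged over genotypes the log2 fold change was -0.20 ± 0.08 (adjusted p = 1.00, limma), and it was -0.10 without vehicle-treated WT replicate 1 and -0.31 without vehicle-treated WT replicate 3. Ocln, which encodes occludin, was at 11.8, 11.3 and 13.4 CPM in vehicle-treated and 10.96, 10.4 and 7.97 CPM in E2-treated Het-Met mice. E2 against vehicle gave a log2 fold change of -0.31 ± 0.13 (adjusted p = 0.872, limma), and of -0.18 without E2-treated Het-Met replicate 3. In WT mice it was at 11.8 and 10.2 CPM with vehicle and 13.1 and 11.1 CPM with E2, with overlap. Cdh5, the cadherin of endothelial junctions, and Esam, another adhesion protein gene of these junctions, had no unadjusted p-value under 0.05 in any comparison.

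Pecam1 illustrates the endothelial genes in which no difference was detectable. It was at 23.5 and 21.4 CPM in vehicle-treated WT, 23.4 and 20.7 CPM in E2-treated WT, 23.2, 23.5 and 21.1 CPM in vehicle-treated Het-Met and 26.8, 22.5 and 19.9 CPM in E2-treated Het-Met mice, and all groups overlapped. Its log2 fold change was -0.03 for E2 in WT, with a 95% interval from -0.31 to 0.25, and 0.02 for E2 in Het-Met mice, with an interval from -0.21 to 0.25. The receptor genes Flt1, Kdr, Tek and Tie1, through which VEGF and angiopoietins act, and Nos3, the endothelial nitric oxide synthase gene, also had no unadjusted p-value under 0.05 in any comparison. For Nos3, the log2 fold change of E2 was -0.01 in WT (95% interval -0.32 to 0.30) and -0.24 in Het-Met mice (-0.50 to 0.01). Exons of Nos3 overlap 294 bases of Atg9b on the opposite strand.

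Itm2a had the smallest p-value of the set for genotype under E2. It was at 48.2 and 51.2 CPM in vehicle-treated WT, 39.1 and 44.3 CPM in E2-treated WT, 57.9, 55.9 and 51.4 CPM in vehicle-treated Het-Met and 56.4, 46.6 and 51.4 CPM in E2-treated Het-Met mice. The 2 E2-treated WT libraries were below all others. The log2 fold change between genotypes was 0.30 ± 0.09 under E2 (adjusted p = 0.340, limma) and 0.22 ± 0.07 averaged over treatments (adjusted p = 0.146, limma), and that of E2 averaged over genotypes was -0.18 ± 0.07 (adjusted p = 1.00, limma). Egfl7, a secreted factor gene of endothelium, differed in the same way, by 0.23 ± 0.09 between genotypes under E2 (adjusted p = 0.368, limma). The other surface genes (Ly6c1, Ly6a, Eng, Emcn, Vwf and Podxl) had no unadjusted p-value under 0.05 in any comparison. Ly6a, Ly6c1 and Abcb1a have close relatives between which reads may have been divided.

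Of the transcription factors, Lef1, an effector of Wnt signalling that some neurons also make, was higher in Het-Met mice. It was at 8.84 and 7.98 CPM in vehicle-treated WT, 7.54 and 10.1 CPM in E2-treated WT, 10.8, 11.4 and 9.69 CPM in vehicle-treated Het-Met and 13.2, 11.3 and 10.8 CPM in E2-treated Het-Met mice. Within each treatment all Het-Met libraries were above both WT libraries. For Lef1 the log2 fold change was 0.32 ± 0.14 under vehicle (adjusted p = 0.451, limma), 0.41 ± 0.14 under E2 (adjusted p = 0.349, limma) and 0.36 ± 0.10 averaged over treatments (adjusted p = 0.135, limma). The difference under E2 was 0.21 without E2-treated WT replicate 1. Erg, a factor that maintains endothelial identity, was at 5.78 and 5.95 CPM in vehicle-treated and 4.04 and 4.51 CPM in E2-treated WT mice, a log2 fold change of -0.42 ± 0.16 (adjusted p = 1.00, limma), the lowest log2 fold change of the set for E2 in WT. In Het-Met mice Erg overlapped between vehicle (5.30 to 5.43 CPM) and E2 (4.60 to 6.26 CPM). Sox17, Sox18, Ets1 and Foxq1 had no unadjusted p-value under 0.05 in any comparison.

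The number of vascular genes under an unadjusted p-value of 0.05 was set against the transcriptome in each comparison. For E2 in WT mice it was 7 of 41 (17.1%), 1 higher (Tagln) and 6 lower (Slco1a4, Erg, Itm2a, Pdgfrb, Abcb1a and Egfl7), against 4.04% of all genes, 2.37% higher and 1.66% lower. For E2 in Het-Met mice it was 4 (9.76%), all lower (Mfsd2a, Ocln, Acta2 and Slc2a1), against 5.45%, 2.82% higher and 2.63% lower. For genotype under E2 it was 6 (14.6%), 4 higher (Itm2a, Lef1, Egfl7 and Slco1a4) and 2 lower (Mfsd2a and Rgs5), against 11.7%, 6.29% higher and 5.36% lower.

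For the interaction the number was 4 (9.76%), 1 higher (Slco1a4) and 3 lower (Acta2, Tagln and Mfsd2a), against 5.42%, 2.8% higher and 2.62% lower. For genotype averaged over treatments it was 5 (12.2%), 3 higher (Lef1, Itm2a and Egfl7) and 2 lower (Rgs5 and Abcc9), against 16.6%, 9.33% higher and 7.27% lower. The share was thus below that of all genes when genotypes were compared over both treatments. The comparisons share libraries: the E2-treated WT libraries, for instance, enter both E2 in WT and genotype under E2, in which Itm2a, Egfl7 and Slco1a4 appear with opposite signs.

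Co-variation of the genes within groups was described by the correlation of their deviations from the group mean over the 10 libraries, which share depth and tissue composition. Acta2 and Tagln had the highest Pearson r of all pairs (0.975, Spearman 0.927, and 0.960 without the 2 libraries farthest from the median). Kdr and Sox17 (0.961), Pecam1 and Vwf (0.961) and Cldn5 and Vtn (0.956) followed. Kdr and Sox17 remained at 0.878, Pecam1 and Vwf at 0.896 and Cldn5 and Vtn at 0.879 without 2 libraries, which for the first 2 pairs were E2-treated Het-Met replicates 1 and 3. For Cldn5 and Vtn they were vehicle-treated WT replicates 1 and 3, which form 1 mirrored pair.

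Endothelial genes deviated more with pericyte genes than with smooth muscle genes, while pericyte genes deviated with both. The median r was 0.51 among the endothelial surface genes, 0.53 between these and pericyte genes, 0.02 between these and smooth muscle genes, and 0.70 among the 4 smooth muscle genes. Pericyte genes had a median r of 0.30 with the transporters, 0.62 with the transcription factors and 0.47 with smooth muscle genes. For Acta2, Tagln and Myh11, r with the 18 surface genes ran from -0.46 to 0.80, with a median of 0.10.

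**Figure D5:**
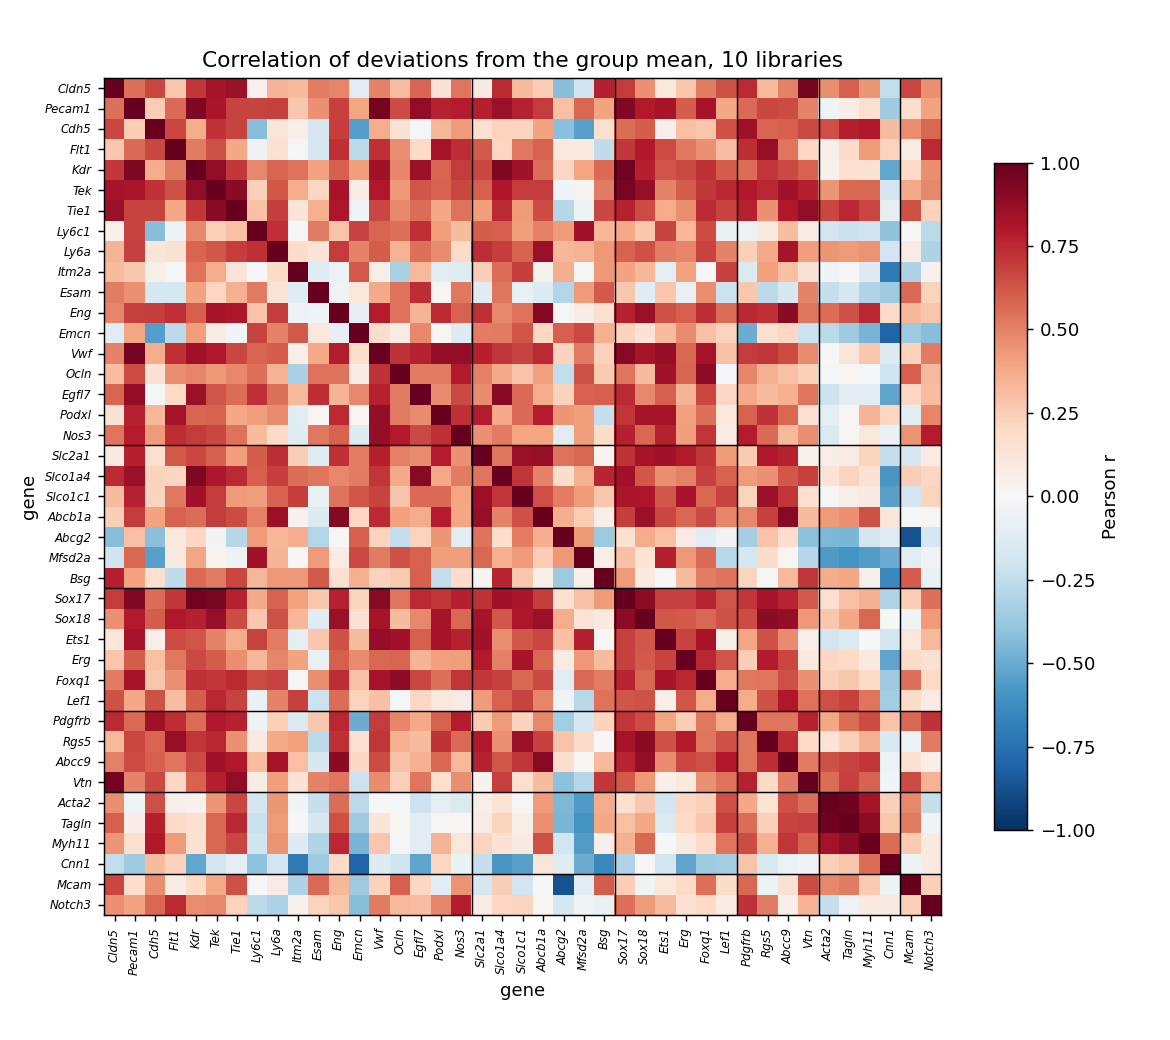
Pearson r (colour) between the deviations of each pair of the 41 genes from their group mean over 10 libraries, with lines between the classes. The block of Acta2, Tagln and Myh11 is dark red within itself, whereas its squares against the endothelial surface genes hold both colours, with r from -0.46 to 0.80.

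Promoter sequences from RefSeq (GRCm38.p6), running from 250 bases before to 50 bases after the start of a transcript, were matched for 26 of the 41 genes. No entry was matched for Sox18, Cdh5, Ly6a, Bsg, Myh11, Pecam1, Vwf, Foxq1, Pdgfrb, Sox17, Nos3, Podxl, Ets1, Esam and Tagln. The palindromic estrogen response element, GGTCANNNTGACC, was in none of the 37 promoter windows of these genes and in 0.07% of all 32851 windows. A single arm of it, AGGTCA, searched on both strands, was in 8 of the 37 windows (Abcg2, Egfl7, Emcn, Erg, Ly6c1, Mfsd2a and Ocln) and in 16.3% of all windows. The MCAT element CATTCC, known from promoters of muscle genes, was in 8 of the 37 windows (Abcb1a, Abcc9, Acta2, Emcn, Erg, Slco1c1 and Vtn) and in 14.7% of all. The CArG box was searched only in its strict form, with 6 bases of A or T between CC and GG, so that forms with another base inside were not counted. The strict form was found only in a window of Lef1 among the 26 genes, and in 1.63% of all windows. All 4 motifs were searched on both strands, and a match is a description of the sequence only.

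The promoters of Mfsd2a, Acta2 and Abcc9 are shown. Mfsd2a had the smallest p-value of the set for E2 in Het-Met mice. Acta2 and Abcc9, a smooth muscle and a pericyte gene, differed in opposite directions between genotypes under vehicle, and both hold the MCAT element. Rgs5, the pericyte gene with the smallest p-value in that comparison, was matched but held none of the motifs searched. The promoters shown read 5′ to 3′ on the strand of the gene. The capitals mark the arm AGGTCA in Mfsd2a, which begins 213 bases before the start, and the MCAT element, on the opposite strand, in Acta2 and Abcc9, which begins 146 and 219 bases before it. The windows are chr4:122961139-122961438, chr19:34255324-34255623 and chr6:142702225-142702524, all on the minus strand.
Mfsd2a: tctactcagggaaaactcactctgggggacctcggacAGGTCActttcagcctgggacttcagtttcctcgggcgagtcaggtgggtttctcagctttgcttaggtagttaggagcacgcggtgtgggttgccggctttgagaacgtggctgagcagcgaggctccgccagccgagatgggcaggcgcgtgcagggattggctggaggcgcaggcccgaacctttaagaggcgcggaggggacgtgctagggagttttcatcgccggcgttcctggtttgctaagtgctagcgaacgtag
Acta2: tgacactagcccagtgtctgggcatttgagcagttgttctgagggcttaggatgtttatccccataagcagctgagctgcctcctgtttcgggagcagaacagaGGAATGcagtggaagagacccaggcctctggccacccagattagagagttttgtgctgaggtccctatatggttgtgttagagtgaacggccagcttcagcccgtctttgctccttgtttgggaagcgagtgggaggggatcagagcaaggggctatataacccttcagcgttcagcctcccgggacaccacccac
Abcc9: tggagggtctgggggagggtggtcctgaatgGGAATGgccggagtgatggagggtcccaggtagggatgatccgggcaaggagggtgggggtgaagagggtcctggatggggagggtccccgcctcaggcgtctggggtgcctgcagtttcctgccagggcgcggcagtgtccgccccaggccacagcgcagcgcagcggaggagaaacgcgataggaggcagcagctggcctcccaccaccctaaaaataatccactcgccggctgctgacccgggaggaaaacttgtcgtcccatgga

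The neighbouring pathways were examined in gene lists chosen by function. Of 56 genes for vascular signals (VEGF, angiopoietin, PDGF, Wnt, Notch, TGF-β and endothelin pathways), 55 were tested and limma called none in any comparison. At an unadjusted p-value under 0.05 there were 0 for E2 in WT, 3 for E2 in Het-Met (all lower), 4 for genotype under vehicle (3 higher), 3 for genotype under E2 (2 higher), 1 for the interaction (lower), 2 for E2 averaged (both lower) and 5 for genotype averaged (3 higher). These were shares of 0% to 9.09% of the list, and in 5 of the comparisons the share was below that of all genes under the same limit, such as 7.27% against 10.7% under vehicle and 9.09% against 16.6% averaged over treatments. It was 5.45% of the list and of all genes for E2 in Het-Met, and 3.64% against 3.22% for E2 averaged over genotypes. The genes named here are therefore a description. Pdgfa, a ligand of the PDGF family, had a log2 fold change of 0.28 ± 0.10 between genotypes under E2 (adjusted p = 0.349, limma), with 21.0 and 22.7 CPM in WT and 26.8, 26.1 and 27.2 CPM in Het-Met mice. Angpt1, the pericyte ligand of the receptor Tek, had one of 0.46 ± 0.19 (adjusted p = 0.383, limma), with 6.19 and 8.25 CPM in WT and 9.84, 8.57 and 11.8 CPM in Het-Met mice. In both, the Het-Met libraries were above the WT libraries under E2.

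Id3, a target of BMP signals, was lower with E2 in Het-Met mice by -0.26 ± 0.09 on the log2 scale (adjusted p = 0.826, limma), with 29.2, 29.3 and 28.7 CPM with vehicle and 24.9, 23.8 and 24.1 CPM with E2. Wnt7a, a Wnt ligand that acts on brain endothelium, had a log2 fold change of -0.21 ± 0.09 (adjusted p = 0.872, limma) in the same comparison. Under vehicle, Hes1, a Notch target, had one of 0.31 ± 0.11 between genotypes (adjusted p = 0.379, limma) and Adgrf5, an adhesion receptor of endothelium, one of -0.31 ± 0.11 (adjusted p = 0.412, limma). Tgfb2 had an interaction of -0.28 ± 0.13 (adjusted p = 0.911, limma), and Apcdd1, an endothelial Wnt target, a log2 difference of -0.17 ± 0.08 for E2 averaged over genotypes (adjusted p = 1.00, limma).

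Of 14 genes for loss of the barrier or activation of the endothelium, 11 were tested and limma called none. At an unadjusted p-value under 0.05 there was 1 (9.09% of the list) in each of 4 comparisons and none in the others. Of all genes, 11.7% passed for genotype under E2, 16.6% for genotype averaged, 5.42% for the interaction and 3.22% for E2 averaged. The genes, named here after their values were seen, are therefore a description. These were Ackr1, higher in Het-Met mice under E2 (log2 0.40) and averaged over treatments (0.27), Cav1, with an interaction of 0.33, and Timp1, with -0.40 for E2 averaged over genotypes. Of 36 further genes for junctions, basement membrane and transport, limma called none, and an unadjusted p-value under 0.05 was reached by 2 to 5 per comparison. This was 11.1% against 4.04% of all genes for E2 in WT, 13.9% against 5.45% for E2 in Het-Met, 11.1% against 10.7% for genotype under vehicle, 13.9% against 11.7% under E2, 8.33% against 5.42% for the interaction, 5.56% against 3.22% for E2 averaged and 8.33% against 16.6% for genotype averaged. The largest values, also named after their values were seen, were the interactions of Nid2, a basement membrane gene (-0.85, adjusted p = 0.25 in limma), and Lepr, the leptin receptor gene (-0.84, adjusted p = 0.46 in limma). Both had the sign of the choroid plexus markers, whose median interaction was -2.98, and the part of these markers in them was not tested.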

How the data were processed

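The authors trimmed and filtered 75-bp reads of mouse vHpc libraries, aligned them to mm10 with TopHat2 and deposited CPM per gene symbol. Of these, 10 libraries were analysed here; the methods of the study give 3 replicates per group, and a further one of each WT group was not analysed here. The gene annotation and the strand setting of the counting are not given in the sources used here. In each library 100% of the CPM values were whole multiples of the value of 1 read (tolerance 0.01), so whole reads were recovered, 19820184 to 23267410 per library. The values of 1 read, 0.0430 to 0.0505 CPM, set the counting precision. Positions came from GENCODE vM21 (GRCm38).

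Values were log2(CPM + 0.5). Genes below a mean of 0.5 CPM were left out, and 15081 remained. Fold changes are on this scale, which understates those of low genes. limma 3.58.1 in R 4.3.3 fitted the 4 group means with an intensity trend, two-sided, with Benjamini-Hochberg adjustment over all genes tested. A gene was called where it differed by more than 1.3-fold with an adjusted p-value under 0.05. The test was checked on simulated data. Alternatives were a pseudocount of 0.1 or 1, filtering no gene or those under 2 CPM, TMM and median-of-ratios scaling, a replicate block, edgeR 4.0.16 and DESeq2 1.42.0 on recovered reads, covariates for choroid plexus and meningeal fibroblast markers, and each library left out.

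Genes, classes, lists and markers were chosen with earlier results of these data known. Genes named with values were 8 defining markers and, per comparison, up to 3 of the set and 2 of the signalling list with the smallest unadjusted p-value under 0.05; any others were named after their values were seen. Each library is a pool of 2 animals. p-values measure the spread between these pools. Figures were drawn with matplotlib 3.10.9 in python 3.11.15.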

Additional observations from a re-analysis of the deposited data

How the results depend on the processing

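With 2 or 3 pools per group, even differences beyond the interval widths given were not called, and many of the values are small. Those intervals are not adjusted for the number of genes. Acta2 between genotypes under vehicle, at a log2 fold change of 0.48, had an adjusted p of 0.336 in limma. Alternatives were fitted to all genes. Single genes were followed through them only for the up to 3 smallest p-values of the set in each comparison, not for the others named. None of these log2 fold changes reversed under any alternative run. All were uncalled in the main fit, 438 stayed uncalled and 3, all of Rgs5, were called. As few genes were called in any fit, staying uncalled says little about stability. The sizes moved, from 0.21 to 0.60 for Lef1 between genotypes under E2 and from -1.14 to -0.40 for the interaction of Acta2. Others moved less, such as Rgs5 averaged over treatments, from -0.44 to -0.33. DESeq2 called 1 gene of the set (Rgs5) between genotypes under vehicle and 1 averaged over treatments, against 0 by limma. Leaving out a library gave 0 to 1 for the latter.

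The count of genes under an unadjusted p-value of 0.05 was 2 in place of 4 for E2 in Het-Met mice with no filter, and 8 in place of 5 for genotype under vehicle with the choroid plexus covariate. The same covariate moved the median log2 fold change of the endothelial genes to -0.1997 for E2 in WT, to -0.1478 for genotype under vehicle and to 0.2057 for the interaction, and that of the mural genes to 0.124 for E2 in WT and -0.1981 for the interaction. With 1 library left out, the count ran from 3 to 9 for E2 in WT, 3 to 8 for E2 in Het-Met, 4 to 8 for genotype under vehicle, 3 to 8 for genotype under E2, 2 to 7 for the interaction and 2 to 12 for E2 averaged. The mural median ran from -0.1022 to 0.2016 for E2 in WT, from -0.216 to 0.1861 for genotype under vehicle and from -0.1434 to 0.2002 for the interaction, so its direction rested on single libraries. The cause was not tested.

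Replicate numbers are shared between groups, but the 12 pairs of same-numbered libraries had correlations of deviations from -0.172 to 0.0826, and none was over 0.1. With the replicate block the count for the interaction was 7 in place of 4, the log2 fold change of Tagln for E2 in WT was 0.27 in place of 0.42, and the block changed no call.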
